A study of Mus musculus with 9 samples.

Results

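Interferon-stimulated genes are genes that cells switch on when interferon reaches them, and 39 of them were followed here across spinal cord of healthy mice and of mice with experimental autoimmune encephalomyelitis, abbreviated EAE, in which T cells directed at myelin cause inflammation of the cord and which serves to model multiple sclerosis. The 39 were a fixed list of antiviral effectors and signalling genes, matched by gene symbol among the 40879 symbols of the count table. All 39 were present in the table, and 36 had enough counts to be tested, out of 15351 symbols tested in all. RNA of whole spinal cord from wild-type mice was sequenced from the 3′ ends of transcripts in 9 libraries. Of these, 3 came from naive mice, 3 from mice with EAE given vehicle, and 3 from mice with EAE given GV1001, a telomerase peptide. The labels give no strain, age, sex, dose, day of disease or way of inducing EAE, and do not tell whether replicates came from separate mice, so p-values measure the spread between these samples, which may be technical.

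Interferons are secreted proteins that warn cells of infection or inflammation. Type I interferons signal through Tyk2 and Jak1 to a complex that holds Stat2 and Irf9 and binds the interferon-stimulated response element (ISRE), and type II interferon (interferon gamma) signals through Jak1 and Jak2 to the gamma-activated site (GAS). The genes behind these elements encode sensors of foreign nucleic acid, enzymes that degrade RNA or starve a virus of nucleotides, and proteins that hold virus at membranes. In inflamed cord, microglia, astrocytes and infiltrating leukocytes are known to express many of them. In whole tissue, fewer cells of a type and less RNA per cell cannot be told apart.

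Promoters of the genes were searched for both elements. RefSeq promoter windows of the GRCm38.p6 build, from 250 bases before a start to 50 after it, were available for 29 of the 39 genes. The following stretches are shown because these 8 genes had the highest fitted fold changes, in all EAE libraries against naive, among the tested genes with an ISRE core upstream of the start. The ISRE core was searched as GAAA, any 2 bases and GAAA on both strands, and capitals mark each match, merged where matches overlap. On the other strand the core reads TTTC, any 2 bases and TTTC. Each stretch is written 5′ to 3′ on the strand of its gene.
Ifi207 (chr1:173741811-173741880, minus strand): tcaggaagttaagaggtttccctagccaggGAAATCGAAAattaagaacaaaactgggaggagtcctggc
Bst2 (chr8:71537557-71537632, minus strand): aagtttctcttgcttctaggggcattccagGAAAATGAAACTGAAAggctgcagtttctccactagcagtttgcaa
Isg15 (chr4:156200845-156200926, minus strand): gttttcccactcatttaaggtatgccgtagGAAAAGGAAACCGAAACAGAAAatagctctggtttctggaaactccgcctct
Trim30a (chr7:104465194-104465259, minus strand): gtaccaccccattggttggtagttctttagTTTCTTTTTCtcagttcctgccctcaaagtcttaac
Ifit3 (chr19:34583343-34583446, plus strand): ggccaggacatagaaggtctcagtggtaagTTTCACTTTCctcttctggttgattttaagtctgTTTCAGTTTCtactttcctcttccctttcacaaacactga
Ifit3b (chr19:34607739-34607842, plus strand): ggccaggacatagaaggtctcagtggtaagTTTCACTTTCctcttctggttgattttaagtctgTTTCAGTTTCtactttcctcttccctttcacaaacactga
Ifit1 (chr19:34640755-34640843, plus strand): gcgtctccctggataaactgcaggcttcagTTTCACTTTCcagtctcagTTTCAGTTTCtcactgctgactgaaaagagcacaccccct
Ifitm2 (chr7:140955968-140956037, minus strand): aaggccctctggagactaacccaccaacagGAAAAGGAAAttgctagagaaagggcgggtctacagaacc

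Isg15 held 3 overlapping cores between 78 and 57 bases before its start, and Bst2 held 2 between 130 and 115 bases before its start. Ifit1, Ifit3 and Ifit3b each held 2 separate cores on the opposite strand. The 104 bases shown for Ifit3 and Ifit3b were identical at 104 positions. These bases lie before the starts, and whether the counting can tell transcripts of these close relatives apart was not tested, so their values are uncertain in this respect. An ISRE core lay in the window of 16 of the 29 genes (55.2%, 95% Wilson interval 37.6% to 71.6%) and of 1079 of the 27025 genes in the table (3.99%). With a C after the core it was found in 11 of 29 genes (37.9%) and in 0.944% of all genes. The GAS, searched as TTC, any 3 bases and GAA, lay in 9 of 29 windows (31.0%, 17.3% to 49.2%) and in 9.55% of all. Irf1 held one GAS, TTCCCCGAA, 90 to 82 bases before its start, and Irf8 held TTCTCGGAA and TTCAGAGAA with no ISRE core. Of the 29 genes, 4 held both elements (Oas1a, Eif2ak2, Ifitm3 and Bst2), 12 an ISRE core only, 5 a GAS only (Irf1, Irf8, Ifit2, Samhd1 and Ifi35) and 8 neither. The intervals treat the genes as independent draws, which a chosen list with close relatives such as Ifit3 and Ifit3b is not. A match is a run of letters and not a measured binding site. A gene without a match may still hold an element in another form or outside the window, which was not searched.

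The mean level of the list was low and similar in the 3 naive libraries and spread widely within both EAE groups. It was highest in vehicle replicate 1 and next in GV1001 replicate 2. In each library, the level of the list was taken as the mean over the 36 tested genes of log2 CPM (counts scaled to a library total of 1000000) minus the naive mean of the gene. It was -0.12, 0.10 and 0.02 in naive replicates 1 to 3. Vehicle replicates 1 to 3 were at 3.10, 1.12 and 1.33, and GV1001 replicates 1 to 3 at 0.31, 2.24 and 0.81. Every EAE library was above every naive library on this mean, while the vehicle and GV1001 libraries overlapped, with GV1001 replicate 2 above vehicle replicates 2 and 3. The 39 genes together took 0.0250% to 0.0309% of all counts in naive libraries, 0.226%, 0.0599% and 0.0696% in vehicle replicates 1 to 3, and 0.0356%, 0.129% and 0.0526% in GV1001 replicates 1 to 3.

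**Figure D1:**
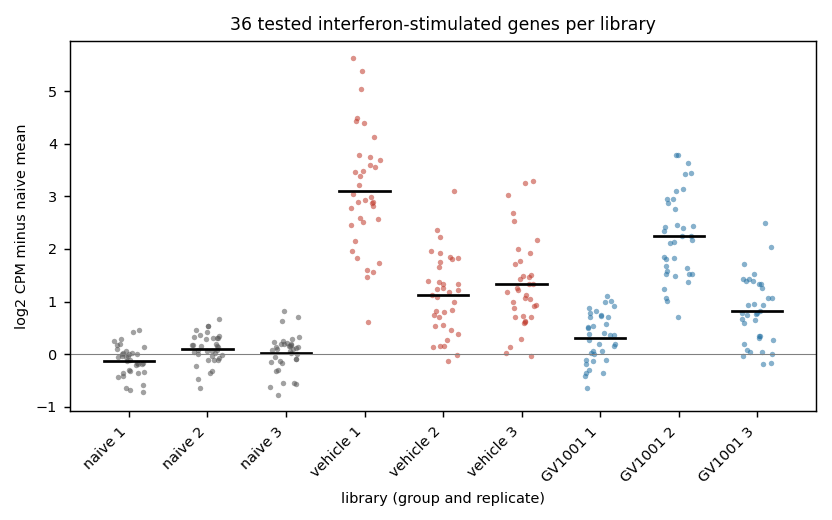
Each point is one of the 36 tested interferon-stimulated genes in one library, as log2 CPM minus the naive mean of that gene, and the black line is the mean over genes. Naive libraries lie at 0, vehicle replicate 1 has a mean of 3.10 and GV1001 replicate 2 a mean of 2.24, and the other EAE libraries lie between 0.31 and 1.33.

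Vehicle replicate 1 held the highest CPM for 34 of the 36 tested genes, and GV1001 replicate 2 was second for 32. The exceptions at the top were Rsad2, highest in vehicle replicate 2, and Cmpk2, highest in GV1001 replicate 2. Of all 39 genes, 39, 34 and 35 were above all 3 naive libraries in vehicle replicates 1, 2 and 3, and 21, 39 and 30 in GV1001 replicates 1, 2 and 3. Shares of all tested genes were not computed for these ranks and counts, so they only describe the order of the libraries. The median standard deviation of a member within its group was 0.305 log2 units in naive cord, 1.19 in vehicle and 0.949 in GV1001, against 0.163, 0.265 and 0.215 over all tested genes. The median member therefore varied more between replicates than the median gene, in naive cord as well as in both EAE groups. Genes of a like count level were not set beside the members.

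**Figure D2:**
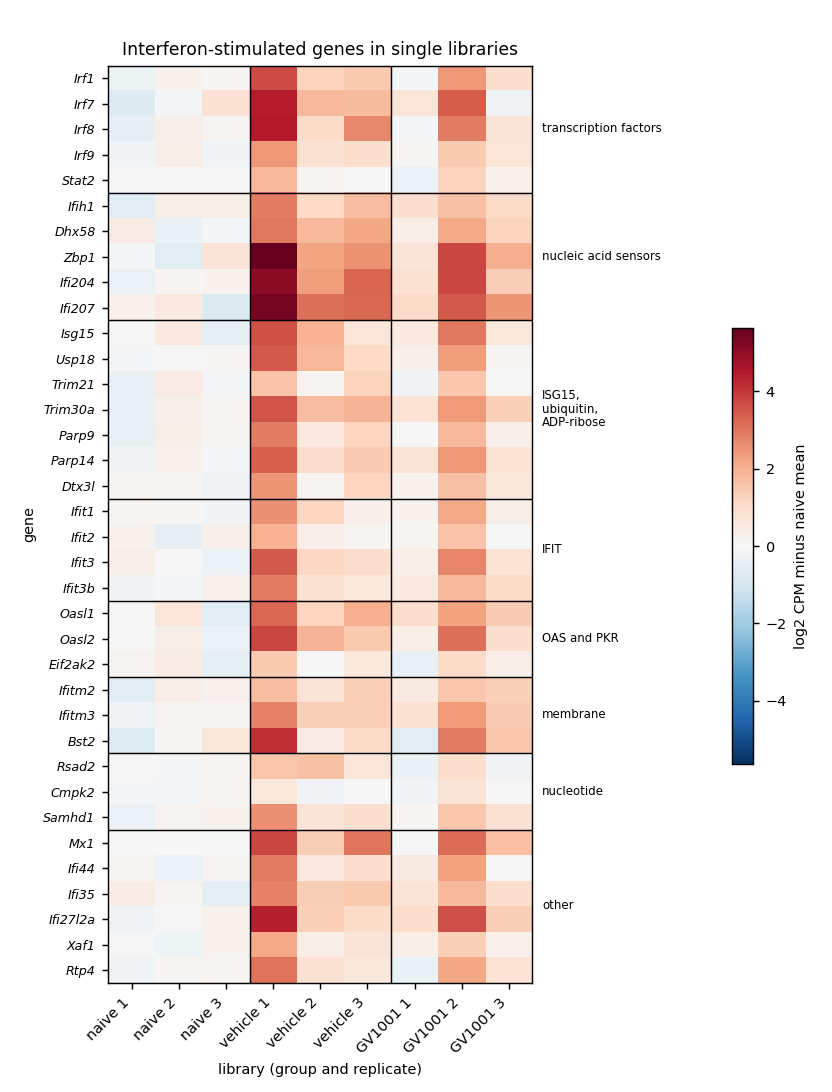
Rows are the 36 tested genes by role, columns are the 9 libraries, and colour is log2 CPM minus the naive mean of the gene. Vehicle replicate 1 is the darkest column, GV1001 replicate 2 the next, and GV1001 replicate 1 is near the naive level, with a mean of 0.31.

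The transcription factors carry the interferon signal to these promoters. Irf9, the DNA-binding subunit of the complex that binds the ISRE, was at 12.7, 18.1 and 12.6 CPM in naive replicates 1 to 3, 79.2, 26.7 and 28.4 in vehicle and 15.1, 41.4 and 23.3 in GV1001. Stat2, the partner of Irf9, was at 14.6, 14.2 and 14.4 CPM in the naive libraries, 51.7, 16.6 and 15.3 in vehicle and 11.7, 35.3 and 16.8 in GV1001. For both genes the 3 vehicle libraries were above all naive libraries, but for Stat2 vehicle replicates 2 and 3 were only just above. Irf7, the factor that amplifies type I interferon production, was at 0.891, 1.55 and 3.25 CPM in naive cord, 43.1, 7.05 and 6.97 in vehicle and 3.02, 22.0 and 1.46 in GV1001. Irf1, a factor induced strongly by interferon gamma, was at 11.9, 16.9 and 16.1 CPM in the naive libraries, 194, 37.0 and 43.4 in vehicle and 14.0, 85.2 and 29.0 in GV1001. Irf8, a factor that microglia and other myeloid cells also need for their identity, was at 9.27, 15.7 and 14.1 CPM in naive cord, 289, 28.4 and 87.9 in vehicle and 11.9, 97.7 and 21.9 in GV1001. In all 5 factors the vehicle libraries did not overlap the naive ones, and GV1001 replicate 1 lay within or below the naive range. Log2 fold changes of vehicle against naive ran from 0.94 ± 0.51 (SE) for Stat2 to 3.37 ± 0.91 for Irf8, and edgeR's adjusted p was 0.0885 for Irf8 and 0.355 for Stat2.

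The nucleic acid sensors had the highest fold changes of the 8 role groups, with a median log2 fold change of 4.45 over 5 genes in vehicle against naive. Ifi207, a relative of the DNA sensors of the interferon-inducible p200 family, was at 0.356, 0.518 and 0 CPM in the naive libraries, 24.4, 4.96 and 5.58 in vehicle and 0.945, 6.35 and 3.08 in GV1001. Its neighbour Ifi204, a DNA sensor of the same family, was at 0.535, 0.863 and 0.902 CPM in naive cord, 35.6, 5.53 and 11.0 in vehicle and 1.70, 15.2 and 2.59 in GV1001. For both genes all 6 EAE libraries were above all naive ones. Naive levels here rest on few reads, since 3 counts amount to 0.486 to 0.572 CPM in these libraries. Ifih1, the cytosolic sensor of long double-stranded RNA called MDA5, was at 1.60, 3.45 and 3.43 CPM in the naive libraries, 21.9, 6.48 and 10.1 in vehicle and 5.48, 9.52 and 6.15 in GV1001, again with no overlap between naive and EAE. Dhx58, which encodes LGP2, a helper of MDA5 signalling, was at 1.78, 0.863 and 1.08 CPM in naive cord, 11.9, 5.34 and 6.97 in vehicle and 1.70, 6.52 and 3.40 in GV1001. GV1001 replicate 1 thus fell within the naive range for Dhx58. Zbp1, a sensor of left-handed nucleic acid that can trigger cell death, averaged 0.240 ± 0.276 (SD, n = 3) CPM in the naive libraries, 10.7 ± 13.9 in vehicle and 3.31 ± 3.62 in GV1001. In vehicle against naive, Ifi207 was 5.19 ± 1.07 log2 units higher and Dhx58 2.66 ± 0.56 higher, with edgeR adjusted p of 0.0674 and 0.0703, above the threshold of 0.05.

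Isg15 encodes a ubiquitin-like protein that is attached to other proteins, and Usp18 encodes the protease that removes it and also dampens the type I interferon receptor. Isg15 averaged 2.99 ± 1.26 CPM (SD, n = 3) in naive cord, 18.3 ± 17.0 in vehicle and 11.2 ± 11.8 in GV1001. Usp18 averaged 1.18 ± 0.10, 8.33 ± 7.18 and 3.46 ± 3.57 CPM. In both genes the SD of each EAE group was of the same size as its mean. Trim30a, a tripartite-motif protein, was at 6.77, 11.0 and 9.20 CPM in the naive libraries, 107, 31.6 and 36.1 in vehicle and 15.7, 50.1 and 23.2 in GV1001, so that all EAE libraries were above all naive ones. Parp14, an ADP-ribosyltransferase, was at 4.99, 6.39 and 5.23 CPM in naive cord, 60.0, 11.6 and 16.0 in vehicle and 9.63, 32.3 and 9.88 in GV1001, also with no overlap. Dtx3l, a ubiquitin ligase that acts as a complex with Parp9, was at 7.13, 7.08 and 5.77 CPM in the naive libraries, 38.97, 7.62 and 16.6 in vehicle and 7.75, 21.9 and 10.8 in GV1001. Vehicle replicate 2 was just above the highest naive library for Dtx3l. Parp9 averaged 6.00 ± 1.60, 22.8 ± 19.4 and 11.8 ± 8.86 CPM in naive, vehicle and GV1001. Trim21, an antibody receptor inside the cell, averaged 2.23 ± 0.782, 5.20 ± 2.44 and 3.74 ± 2.88 CPM, and its vehicle and naive libraries overlapped.

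IFIT proteins bind RNA with foreign 5′ ends and block its translation. Ifit3 was at 13.4, 11.2 and 8.48 CPM in naive cord, 121, 25.9 and 22.8 in vehicle and 14.4, 77.0 and 18.9 in GV1001, with all EAE libraries above the naive ones. Ifit1, the family member that holds such RNA directly, was at 6.06, 6.21 and 5.23 CPM in the naive libraries, 36.1, 14.5 and 7.50 in vehicle and 6.80, 27.5 and 7.61 in GV1001. GV1001 replicates 1 and 3 and vehicle replicate 3 were close to naive for Ifit1. Ifit2 was at 8.02, 5.01 and 8.48 CPM in naive cord, 28.0, 8.77 and 8.02 in vehicle and 7.93, 22.2 and 7.13 in GV1001, so that only vehicle replicate 1 and GV1001 replicate 2 stood clearly above naive. Ifit3b averaged 1.65 ± 0.293, 6.80 ± 6.56 and 4.47 ± 2.17 CPM. The log2 fold change of vehicle against naive was 2.35 ± 0.79 for Ifit3 and 1.04 ± 0.59 for Ifit2, at edgeR adjusted p of 0.133 and 0.374.

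OAS enzymes make a short oligoadenylate that activates an RNA-degrading nuclease when they meet double-stranded RNA, and 3 of them were too low to be tested. Oas1a had no count in naive libraries, 37, 5 and 8 counts in vehicle and 5, 18 and 0 in GV1001. Against a floor of 3 counts over the naive group, the summed counts were 17.1-fold higher in vehicle and 7.58-fold higher in GV1001. The lower 95% limits of the ratio to naive, from exact counting error of the summed counts alone, were 13.4 and 5.68. Oas2 had 3, 5 and 1 counts in the naive libraries, 32, 5 and 2 in vehicle and 4, 28 and 10 in GV1001, a ratio of 4.44 in vehicle against naive (95% exact Poisson interval of the summed counts 2.11 to 10.4). Oas3 had 0, 4 and 0 counts in naive cord, 15, 0 and 1 in vehicle and 0, 9 and 0 in GV1001. In all 3 genes vehicle replicate 1 and GV1001 replicate 2 held most of the EAE counts. Oasl2, an OAS-like protein, was at 4.28, 5.70 and 3.43 CPM in the naive libraries, 64.1, 18.1 and 13.6 in vehicle and 5.86, 41.4 and 8.91 in GV1001. Oasl1, its neighbour in the genome, was at 0.178, 0.518 and 0 CPM in naive cord, 4.67, 0.953 and 1.92 in vehicle and 0.756, 2.29 and 1.13 in GV1001. Both OAS-like genes were above naive in all 6 EAE libraries. Eif2ak2, the kinase PKR that stops translation on double-stranded RNA, was at 6.41, 7.94 and 3.79 CPM in the naive libraries, 16.3, 5.91 and 9.41 in vehicle and 4.34, 12.9 and 7.61 in GV1001, with vehicle replicate 2 inside the naive range.

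The 3 membrane proteins had the smallest median difference of the 8 role groups between GV1001 and vehicle, at -0.32 log2 units. Ifitm3, which blocks fusion of viruses that enter through endosomes, was at 46.5, 61.1 and 55.6 CPM in naive cord, 377, 142 and 143 in vehicle and 96.9, 292 and 148 in GV1001. Ifitm2, its relative, was at 8.73, 17.3 and 15.5 CPM in the naive libraries, 44.4, 23.1 and 35.4 in vehicle and 19.3, 40.0 and 34.5 in GV1001. For both genes every EAE library was above every naive library, and GV1001 replicate 3 was above vehicle replicate 2. Whether the counting can tell reads of these relatives apart was not tested. Bst2, the tether that holds budding virus at the cell surface, was at 0.891, 1.73 and 2.71 CPM in naive cord, 34.1, 2.48 and 4.01 in vehicle and 0.945, 15.3 and 5.51 in GV1001. Here naive overlapped both EAE groups.

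Among genes of nucleotide metabolism, Rsad2 and Cmpk2 are neighbours on the chromosome, and their values differed. Rsad2 encodes viperin, which makes a chain-terminating nucleotide, and was at 8.02, 7.42 and 8.48 CPM in the naive libraries, 23.9, 26.7 and 13.8 in vehicle and 6.24, 16.7 and 7.13 in GV1001. All vehicle libraries were above naive for Rsad2, while GV1001 replicates 1 and 3 were below the naive libraries. Cmpk2, a mitochondrial kinase that supplies the nucleotide viperin uses, was at 23.0, 22.1 and 26.5 CPM in naive cord, 36.1, 22.3 and 24.4 in vehicle and 21.9, 40.0 and 24.8 in GV1001, so that 4 of 6 EAE libraries were within or below the naive range. The log2 fold change of vehicle against naive was 1.39 ± 0.37 for Rsad2 and 0.19 ± 0.26 for Cmpk2 (edgeR adjusted p 0.0846 and 0.749), and the difference between the genes was not tested. Samhd1, which depletes the nucleotides that viruses need for DNA synthesis, was at 18.9, 26.9 and 27.2 CPM in the naive libraries, 142, 40.8 and 46.7 in vehicle and 25.3, 71.6 and 43.2 in GV1001.

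Of the remaining genes, Mx1 encodes a dynamin-like GTPase that traps viral nucleocapsids. The naive libraries held no Mx1 count, the vehicle libraries 24, 3 and 15, and the GV1001 libraries 0, 16 and 5. Against a floor of 3 counts over the naive group, the summed counts were 14.3-fold higher in vehicle and 6.92-fold higher in GV1001. The lower limits of the ratio to naive, from exact counting error as for Oas1a, were 11.2 and 5.15. Rtp4, a chaperone of cell surface receptors, was at 6.77, 8.11 and 8.48 CPM in naive cord, 66.1, 14.5 and 12.7 in vehicle and 6.05, 36.8 and 13.8 in GV1001. Ifi27l2a, a small membrane protein, was at 2.85, 3.28 and 3.79 CPM in the naive libraries, 75.8, 9.15 and 7.50 in vehicle and 6.99, 45.8 and 9.39 in GV1001. Every EAE library was above naive for Ifi27l2a, and vehicle replicates 2 and 3 were close to GV1001 replicates 1 and 3. Ifi44 was at 5.17, 3.62 and 5.05 CPM in naive cord, 36.8, 7.05 and 9.41 in vehicle and 6.80, 23.6 and 4.54 in GV1001. Ifi35 and Xaf1 averaged 2.71 ± 0.99 and 2.48 ± 0.408 CPM in the naive libraries, 11.8 ± 6.74 and 6.66 ± 4.68 in vehicle, and 6.76 ± 3.18 and 4.51 ± 2.21 in GV1001.

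EAE given vehicle was compared with naive cord to ask how these genes differ in disease. All 36 tested genes had a higher fitted value in vehicle, where 49.5% of all genes tested did. The median log2 fold change was 2.12 over the 36 genes and -0.0047 over all genes tested. Of the 36, 31 had all vehicle libraries above all naive ones, against 13.6% of all genes, and the 5 that overlapped were Trim21, Ifit2, Eif2ak2, Bst2 and Cmpk2. Yet 0 of 36 passed edgeR's quasi-likelihood test at an adjusted p of 0.05, where 0.0195% of all genes passed (3 genes). At an unadjusted p under 0.05, 31 of 36 were higher in edgeR, against 11.3% of all genes, and the exceptions were Stat2, Trim21, Ifit2, Eif2ak2 and Cmpk2.

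Other tools differed in how many genes they called. DESeq2 called 21 of the 37 members to which it gave an adjusted p as higher, against 4.92% of all genes, and limma-voom called 0 of 36, with 19 at an unadjusted p under 0.05 beside 2671 of all 15351 genes in either direction. The 21 comprised all 5 sensors, Irf1, Irf8, Usp18, Trim30a, Parp14, Dtx3l, Ifit1, Ifit3b, Oas1a, Oasl1, Oasl2, Ifitm2, Ifitm3, Rsad2, Mx1 and Ifi35. The smallest adjusted p among members was 2.18e-05 for Ifi207 in DESeq2 and 0.0674 for the same gene in edgeR. Without vehicle replicate 2, edgeR called 18 of 38 members and 1652 of 15848 genes, and without vehicle replicate 1 it called 0 of 36 members and 5 genes. Leaving out vehicle replicate 1 took the median log2 fold change from 2.12 to 1.27, with 35 of 36 genes still positive. The median over all genes tested in that fit was -0.0060. Vehicle replicate 2 also held 4859 CPM of erythroid transcripts, summed over a list of 5 genes, against 254 to 720 in the other 8 libraries, and the part of this in the result was not tested.

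**Figure D3:**
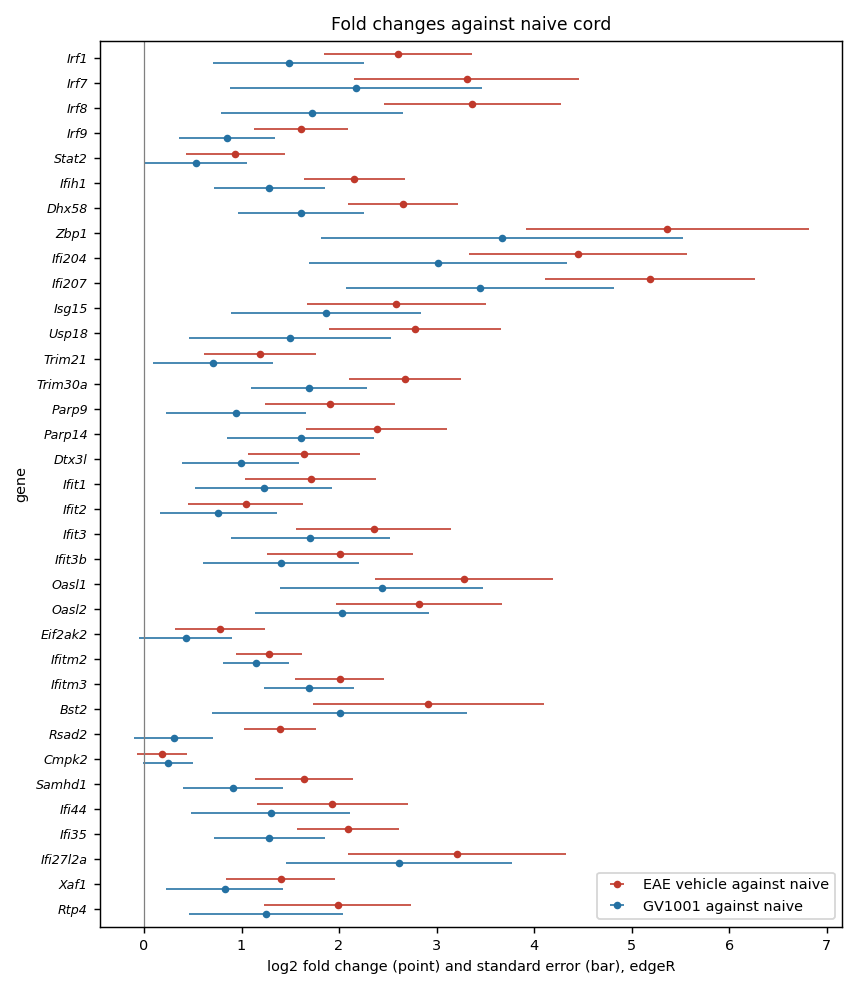
Points are log2 fold changes against naive from edgeR and bars are standard errors, for vehicle (red) and GV1001 (blue), in 35 tested genes. Mx1 is left out because it had no naive count. All points lie above 0, and Zbp1 and Ifi207 lie highest in vehicle, at 5.37 and 5.19.

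GV1001 was compared with vehicle to ask whether these genes differ under treatment. Most fitted values were lower in GV1001, by a median of 0.77 log2 units, but the groups overlapped for every tested gene. Of 36 genes, 35 had a negative log2 fold change, against 51.4% of all genes, and the exception was Cmpk2 at 0.06 ± 0.25. The median was -0.77 over the 36 genes and -0.0088 over all genes tested. In edgeR, 0 of 36 passed (0% of all genes), and 3 had an unadjusted p under 0.05 in the lower direction, against 4.51% of all genes. Those 3 were Rsad2 (-1.09 ± 0.36), Ifi207 (-1.75 ± 0.66) and Dhx58 (-1.05 ± 0.45), with edgeR adjusted p of 0.528, 0.528 and 0.539. All GV1001 libraries were below all vehicle ones for 0 of 36 genes, against 5.03% of all genes. DESeq2 called 0 of 38 as lower, against 0.0142% of all genes, with 2 members at an unadjusted p under 0.05 beside 1299 of 26840 genes in either direction. Limma-voom called 0 of 36, also with 2, beside 1215 of 15351 genes.

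The direction of this comparison rested on vehicle replicate 1, and its size on other libraries as well. Without vehicle replicate 1, 23 of 36 genes were positive, and the median log2 fold change was 0.15, beside 0.0045 over all 15679 genes. Without GV1001 replicate 2 the median was -1.61, beside -0.0008 over all 15675 genes, and all 36 were negative. Of the 36, 23 had an unadjusted p under 0.05 in edgeR, beside 1581 of the 15675 genes in either direction. The adjusted threshold was passed by 0 of the 36. Shares of all genes by sign were not computed for these fits. The 13 genes that stayed negative without vehicle replicate 1 included Rsad2 at -0.97, Dhx58 at -0.63 and Ifi207 at -0.56. Among genes that turned positive, Bst2 went from -0.91 to 1.18, Zbp1 from -1.70 to 0.36 and Ifi27l2a from -0.60 to 1.34.

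**Figure D4:**
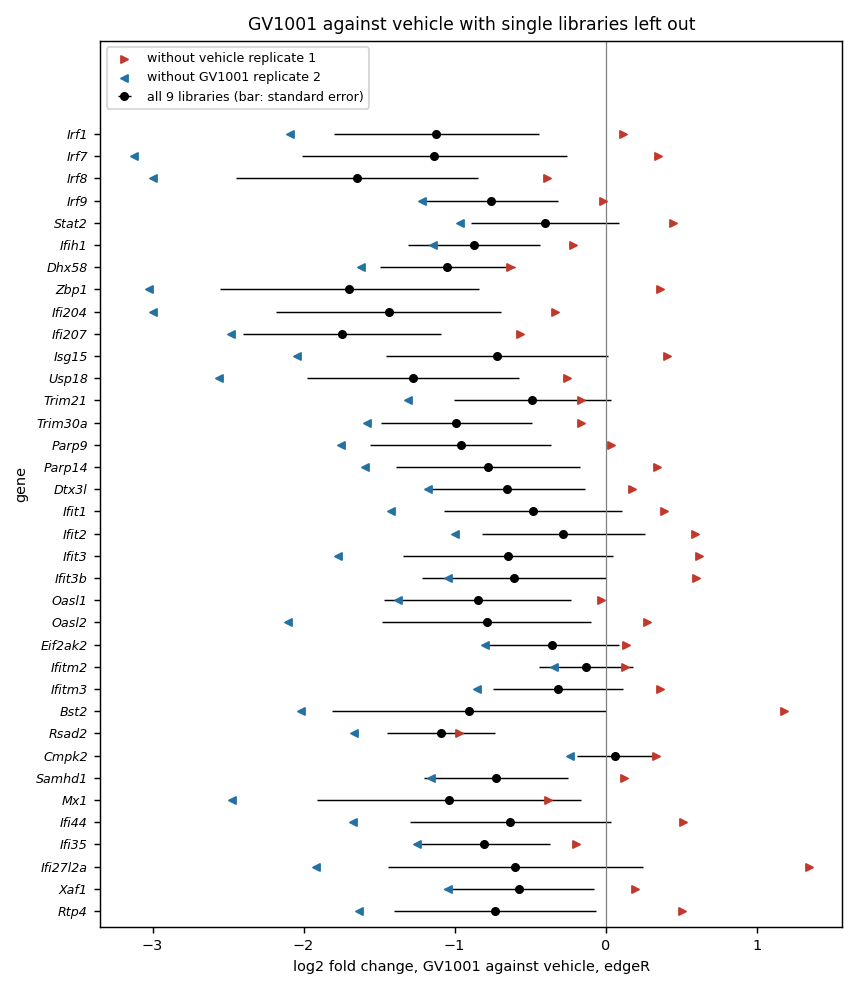
Black points with standard error bars are log2 fold changes of GV1001 against vehicle in edgeR with all 9 libraries, red triangles those without vehicle replicate 1, and blue triangles those without GV1001 replicate 2. The red triangles have a median of 0.15 and the blue ones a median of -1.61, on either side of the black points with a median of -0.77.

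The highest libraries of the 2 EAE groups and the lower vehicle libraries were also set side by side, gene by gene. GV1001 replicate 2 was at a median of 0.554 times vehicle replicate 1 over the 36 tested genes. The 95% interval of the ratio, from exact counting error alone, was below 1 for 31 of 39 genes and included 1 for 8. Vehicle replicates 2 and 3 were closer, with a median ratio of 0.875 and intervals that included 1 for 27 genes. Replicate 2 was the higher of these for Isg15, at 12.4 against 5.05 CPM, and for Ifit1 and Rsad2. Replicate 3 was the higher for 9 genes, among them Irf8 and Ifi204. These ratios compare libraries and not conditions. How often such an interval leaves out 1 over all genes was not computed, so these counts describe the members only.

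Treated cord was also compared with naive cord, to show what remained different under GV1001. This comparison shares its naive libraries with that of vehicle and naive. All 36 fitted values were above naive, against 50.5% of all genes, with a median log2 fold change of 1.44 over the 36 and 0.0019 over all genes. All GV1001 libraries were above all naive ones for 19 of 36 genes, against 10.2% of all genes. In edgeR 0 of 36 passed (0% of all genes), and 12 had an unadjusted p under 0.05 in the higher direction, against 4.35% of all genes. Those with the smallest p were Ifitm3 (1.69 ± 0.46), Ifitm2 (1.15 ± 0.34) and Trim30a (1.69 ± 0.60), at edgeR adjusted p of 0.640, 0.640 and 0.652. DESeq2 called 0 of 38 as higher, against 0.216% of all genes, with 17 of 39 members at an unadjusted p under 0.05 beside 1188 of 26840 genes in either direction. Limma-voom called 0 of 36, with 3 members under 0.05 beside 957 of 15351 genes, a share near that of all genes. Without GV1001 replicate 2 the median was 0.52, and Stat2, Trim21, Eif2ak2, Rsad2 and Cmpk2 were negative.

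All 6 EAE libraries were set against the 3 naive ones, whatever the treatment, with the 2 EAE groups weighted equally. All 36 genes were positive, against 49% of all genes, and the median log2 fold change was 1.78. In edgeR 0 of 36 passed, against 0.00651% of all genes, and 29 of 36 had an unadjusted p under 0.05 in the higher direction, against 8.81%. All 6 EAE libraries were above all naive ones for 19 of 36 genes, against 5.25% of all genes. DESeq2 called 11 of 37 as higher, against 2.73% of all genes: Ifih1, Dhx58, Zbp1, Ifi204, Ifi207, Trim30a, Oas1a, Ifitm2, Ifitm3, Mx1 and Ifi35. In limma-voom 0 of 36 passed, with 11 at an unadjusted p under 0.05 beside 1963 of 15351 genes in either direction. Without vehicle replicate 2, edgeR called 6 members and 514 genes.

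Genes with and without a match to the promoter elements had fold changes of similar size. In vehicle against naive, the 14 tested genes with an ISRE core in the window had a median log2 fold change of 2.01 (0.78 to 5.19), and the 13 without one had a median of 1.93 (0.19 to 3.37). Genes with a GAS had a median of 2.05 over 8 genes, and those without one 1.93 over 19. In GV1001 against vehicle the medians were -0.63 with an ISRE core and -0.76 without. These medians are descriptions, and the difference between them was not tested.

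Fitted fold changes of neighbouring genes of the list differed in size, and the differences were not tested. By the order of protein-coding genes in RefSeq (GRCm38.p6), 7 pairs of members lay side by side. Dtx3l lay between Parp14 and Parp9, and the log2 fold changes of the 3 in vehicle against naive were 1.64, 2.38 and 1.91. Ifit2 and Ifit3 were at 1.04 and 2.35, Ifi204 and Ifi207 at 4.45 and 5.19, and Oasl2 and Oasl1 at 2.82 and 3.28. Ifitm1, a relative of Ifitm2 and Ifitm3 that lies between them, was at 4.45, 3.80 and 0.722 CPM in naive cord, 16.2, 14.3 and 19.3 in vehicle and 11.7, 21.3 and 18.8 in GV1001, and was named after its values were seen. Its groups did not overlap naive and were close to each other, and its log2 fold change was 2.43 ± 0.40 in vehicle against naive and 0.06 ± 0.31 in GV1001 against vehicle, at edgeR adjusted p of 0.0629 and 0.963.

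The interferons themselves were almost absent from the counts. Of 12 interferon genes in the table, 11 had no count in any library, among them Ifnb1 and the alpha interferons listed. Ifng, which encodes interferon gamma, had 10 counts in vehicle replicate 1, 1 in GV1001 replicate 2 and 0 in the other libraries. These are also the libraries in which the list was highest. A count of 0 allowed up to 0.486 to 0.572 CPM, so lower levels could have gone uncounted at this depth.

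Receptors and kinases of the pathway had smaller fold changes than most of the genes downstream. In edgeR 0 of 9 passed in vehicle against naive, 4 had an unadjusted p under 0.05 in the higher direction, where 11.3% of all genes did, and the median log2 fold change was 0.77. Jak1, the kinase shared by both interferon pathways, was at 308, 358 and 342 CPM in the naive libraries, 406, 313 and 332 in vehicle and 299, 371 and 370 in GV1001, with overlapping groups. Ifngr1, the ligand-binding chain of the interferon gamma receptor, was at 27.8, 21.6 and 17.5 CPM in naive cord, 86.0, 24.4 and 48.6 in vehicle and 19.6, 47.6 and 31.1 in GV1001. Among 5 other factors of the STAT and IRF families, 0 passed and 4 had an unadjusted p under 0.05, all higher. Stat3, which mainly serves cytokines such as interleukin 6, was 0.86 ± 0.17 log2 units higher in vehicle than in naive (edgeR adjusted p 0.0679), and Irf5, a factor of myeloid cells, 2.59 ± 0.80 (0.113). Of 11 tested genes of nucleic acid sensing, 0 passed and 6 had an unadjusted p under 0.05 in the higher direction. Tlr7, a receptor for single-stranded RNA, was 2.69 ± 0.77 higher (0.0971), and Traf3, an adaptor, 0.04 ± 0.13 (0.911).

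Inhibitors of the pathway and further targets were given by the same counts, again beside 11.3% of all genes at an unadjusted p under 0.05 in the higher direction. Of 9 inhibitors, 0 passed, 3 had an unadjusted p under 0.05 in the higher and 1 in the lower direction. Socs3, a cytokine-induced inhibitor of receptor signalling, was 3.74 ± 0.82 log2 units higher in vehicle than in naive (edgeR adjusted p 0.0703), and Ptpn1, a phosphatase that acts on Jak2 and Tyk2, 0.96 ± 0.24 (0.0789). Of 38 tested further interferon-stimulated genes, 0 passed and 29 had an unadjusted p under 0.05 in the higher direction, with a median of 1.68 that was 0.72 without vehicle replicate 1. Nlrc5, the activator of class I antigen presentation genes, was 4.66 ± 1.30 higher (0.0898), and Shisa5 1.21 ± 0.44 (0.161). Of 10 tested GTPases that interferon gamma induces, 0 passed and 9 had an unadjusted p under 0.05. Their median was 3.15, and 1.64 without vehicle replicate 1. Iigp1, which attacks the vacuoles of intracellular parasites, was at 5.35, 6.56 and 4.87 CPM in naive cord, 343, 28.0 and 39.6 in vehicle and 9.07, 133 and 13.1 in GV1001. Of 11 genes of class I antigen presentation, 0 passed and 10 had an unadjusted p under 0.05. Their median was 2.60, and 1.27 without vehicle replicate 1. B2m, the light chain of class I molecules, was 2.82 ± 0.87 higher (0.111), and Psmb8, a subunit of the immunoproteasome, 3.77 ± 0.99 (0.0836). In vehicle against naive DESeq2 called 4.92% of all genes with an adjusted p as higher. Of the genes in the table, with or without an adjusted p, it called 1 of 9 receptors and kinases, 1 of 5 other STAT and IRF factors, 5 of 12 sensing genes, 3 of 9 inhibitors, 18 of 44 further interferon-stimulated genes, 5 of 17 GTPases and 5 of 11 genes of class I antigen presentation. For GV1001 against vehicle, 0 genes of these lists passed in edgeR or in DESeq2. At an unadjusted p under 0.05 in edgeR, 1 of 5 STAT or IRF factors, 2 of 11 sensing genes and 1 of 11 class I genes were lower. The other lists had 0 lower at this threshold, against 4.51% of all genes tested. The medians of that comparison were -0.76 for the further interferon-stimulated genes, -1.23 for the GTPases and -1.06 for class I antigen presentation. Without vehicle replicate 1 those 3 medians were 0.15, 0.25 and 0.24.

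Summed markers of microglia, monocytes and T cells were highest in the library where the list was highest. The sums for neutrophils and plasmacytoid dendritic cells were not. Summed over 10 microglial genes, CPM was 262 to 300.4 in the naive libraries, 445 to 1613 in vehicle and 292 to 757 in GV1001. Over 10 genes of monocytes and macrophages it was 16.9 to 32.8, 80.0 to 827 and 60.3 to 237, and over 10 genes of T cells 6.95 to 7.76, 10.7 to 106 and 8.12 to 42.1. Each of these sums was highest in vehicle replicate 1, and those of monocytes and T cells were second highest in GV1001 replicate 2. Cd3d, a chain of the T cell receptor complex, was at 0 in all naive libraries and at 15.4 CPM in vehicle replicate 1. Natural killer cell genes (7 listed, Prf1 with no count anywhere) summed to 0 in naive cord, 1.14 to 4.13 CPM in vehicle and 0.378 to 2.82 in GV1001. Over 8 genes of dendritic cells the sum was 26.4 to 31.2 CPM in naive, 45.5 to 115 in vehicle and 31.0 to 51.3 in GV1001. Over 8 genes listed for plasmacytoid dendritic cells it was 1188 to 1221, 1013 to 1181 and 1101 to 1288 CPM, highest in GV1001 replicate 3. Tcf4, at 660 CPM, and Pacsin1, at 438, made up most of this sum in vehicle replicate 1. Pacsin1 and Cox6a2 were highest in GV1001 libraries, and the rest of this list in vehicle replicate 1. The neutrophil sum of 9 genes was 41.7 to 176 CPM in naive, 123 to 312 in vehicle and 245 to 447 in GV1001, at 192 in vehicle replicate 1 and highest in GV1001 replicate 3. Over 7 genes of B and plasma cells (Cd79a with no count anywhere) it was at most 20.2 CPM in naive, 21.2 to 58.4 in vehicle and 15.9 to 25.3 in GV1001, highest in vehicle replicate 1 and lowest among EAE libraries in GV1001 replicate 2. The part of these cells in the levels of the interferon-stimulated genes was not tested.

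Markers of the cord itself were present in all libraries. The sums were 4849 to 7318 CPM for 8 neuronal genes and 5160 to 6742 for 7 astrocyte genes. They were 12876 to 19319 CPM for 7 oligodendrocyte genes and 333 to 424 for 7 endothelial genes. The neuronal, oligodendrocyte and endothelial sums were lowest in vehicle replicate 1, and the astrocyte sum in naive replicate 2. Markers of tissue beside the cord differed between groups and libraries. The Schwann cell sum was 888 to 1397 CPM in the naive libraries, 511 to 2349 in vehicle and 2238 to 3231 in GV1001, and that of skeletal muscle 21.6 to 188, 16.6 to 406 and 354 to 3571. Vehicle replicate 1, in which the list was highest, held the fewest Schwann cell transcripts, at 511 CPM. GV1001 replicate 1, in which the list was lowest among EAE libraries, held the most muscle transcripts. The part of peripheral nerve and muscle in these results was not tested.

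**Figure D5:**
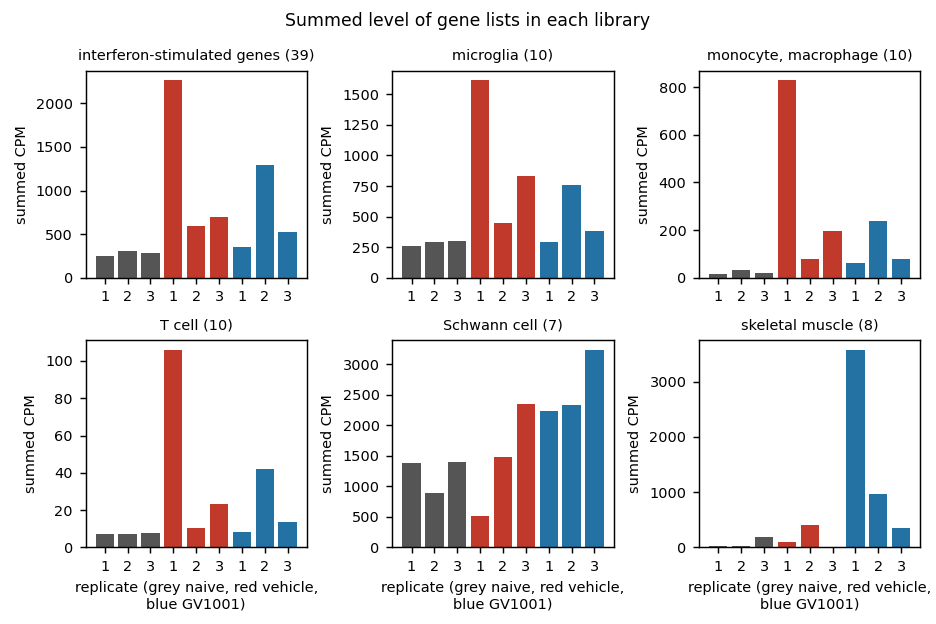
Bars are summed CPM per library for the 39 interferon-stimulated genes and for marker lists, with the number of genes in brackets, and each panel has its own axis from 0. The interferon-stimulated genes, microglia, monocyte and T cell panels peak in vehicle replicate 1, the Schwann cell panel in GV1001 replicate 3 at 3231 CPM and the muscle panel in GV1001 replicate 1 at 3571 CPM.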

How the data were processed

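The authors deposited raw counts of reads, by gene symbol, for 9 libraries of whole spinal cord. Per the submitters' processing notes, FastQC, STAR, HTSeq and the GRCm39 build were used; versions and annotation release are not given in the sources used here. Per the labels' protocols, RNA was extracted with TRIzol or a Maxwell kit, without saying which sample had which, and libraries were made with a QuantSeq 3′ kit. The 9 single-library tables equalled the joint table. Total counts were 5247246 to 6174870, and 14039 symbols had none.

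Symbols with low counts were removed by filterByExpr, which used the groups and a minimum count of 10, and TMM factors were computed. All 9 libraries were fitted with 1 coefficient per group in edgeR 4.0.16 (quasi-likelihood F test, R 4.3.3), and p-values were adjusted by the Benjamini-Hochberg method over 15351 genes. Standard errors come from the F statistic. DESeq2 1.42.0 (no such filter), limma-voom (limma 3.58.1), RLE normalisation, a minimum count of 30, fits of 2 groups, the older quasi-likelihood form, the replicate number as a block and leaving out each library were alternatives. The code was tested on simulated counts. Levels per library are log2 CPM with a prior count of 2. CPM otherwise is counts scaled to library totals. Floors are 3 counts, intervals are at 95%, and both cover counting error only. Plots were made in Python 3.11.15 (matplotlib 3.10.9).

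The members, the 8 role groups and the other lists were chosen with earlier results of these data known, so no list is tested and counts are read beside the share of all genes. Single-library values are given for the 3 tested members of each role group with the highest mean CPM, the 3 with the smallest p in each comparison, all 5 transcription factors, and as counts for members not tested. From each other list, the gene with the highest mean CPM and the one with the largest fold change in vehicle against naive are named. Promoter stretches are those of the 10 members with a match and the largest fold change in all EAE libraries. For Ifitm3 and Ifih1 the matches lie after the start, so no stretch is printed. Values of 1 gene of the pathway lists are not reported here.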

Additional observations from a re-analysis of the deposited data

How the results depend on the processing

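With each library left out in turn, the median log2 fold change of the members in GV1001 against vehicle ran from -1.61 to 0.15, and the turn in sign came without vehicle replicate 1. Over the same left-out libraries, single log2 fold changes of GV1001 against vehicle that changed sign ran from -2.09 to 0.11 for Irf1, -3.12 to 0.35 for Irf7, -0.96 to 0.44 for Stat2, -3.03 to 0.36 for Zbp1, -2.04 to 0.41 for Isg15, -1.75 to 0.03 for Parp9, -1.59 to 0.34 for Parp14 and -1.18 to 0.17 for Dtx3l. They ran from -1.42 to 0.38 for Ifit1, -0.99 to 0.59 for Ifit2, -1.77 to 0.62 for Ifit3, -1.04 to 0.60 for Ifit3b, -2.11 to 0.27 for Oasl2, -0.80 to 0.14 for Eif2ak2, -0.36 to 0.13 for Ifitm2, -0.85 to 0.36 for Ifitm3 and -2.02 to 1.18 for Bst2. For Cmpk2 the range was -0.24 to 0.33, for Samhd1 -1.16 to 0.12, for Ifi44 -1.67 to 0.51, for Ifi27l2a -1.92 to 1.34, for Xaf1 -1.04 to 0.19 and for Rtp4 -1.64 to 0.51. Against naive, Cmpk2 in vehicle ran from -0.08 to 0.33, and in GV1001 Stat2 ran from -0.03 to 0.81, Trim21 from -0.12 to 1.01, Eif2ak2 from -0.02 to 0.71, Rsad2 from -0.27 to 0.54 and Cmpk2 from -0.05 to 0.40. No other setting turned the sign of a tested member or of a median, among RLE normalisation, the other filters, DESeq2, limma-voom, the older quasi-likelihood form, fits of 2 groups and the replicate block.

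Counts of calls depended on the setting, and the cause was not tested. Genes called in vehicle against naive numbered 3 in edgeR, 1105 in DESeq2, 0 in limma-voom, 543 with no filter on low counts, and 0 to 1652 with 1 library left out. Members called there numbered 0, 21 in DESeq2, 12 with no filter, and 0 to 18 with 1 library left out, the 18 without vehicle replicate 2. In GV1001 against vehicle, genes called numbered 0, 12 in DESeq2 and 0 to 8 with 1 library left out. In GV1001 against naive they numbered 0, 45 in DESeq2, 1 with the older form, 1 with no filter, 5 in the fit of 2 groups and 0 to 3 with 1 library left out. For all EAE libraries against naive they numbered 1, 565 in DESeq2, 2 with the older form, 0 in limma-voom, 20 with no filter and 0 to 514 with 1 library left out, and members called numbered 0, 11 in DESeq2 and 0 to 6.

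No label states that equal replicate numbers pair libraries. Of 9 pairs of libraries with the same number, 2 had a correlation above 0.1 (-0.501 to 0.249), and 5 of 18 best matches were with the own number. With the replicate number as a block, 0 genes were called in vehicle against naive, 0 in all EAE libraries against naive and 0 members in any comparison, and the medians of the members were 2.09, -0.69 and 1.45 in the first 3 comparisons. Members with few naive counts, such as Zbp1, Oasl1 and Mx1, limit the precision of a fold change at this depth.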
